A study of Mus musculus with 3 samples.

Results

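Nodal, Lefty1, Lefty2, Cfc1 and Tdgf1, genes of the Nodal and left-right pathway, were followed across stage and genotype. They were chosen by symbol and are 5 of the 51923 genes in the count matrix of 14777 single cells from mouse embryos. The cells were sorted for the red reporter of Ai9 after recombination by Mesp1-Cre, which acts in nascent mesoderm and its descendants, and were read on 10x Chromium v3 in 3 sequencing runs with MULTI-seq barcodes that mark the source sample of each cell. All mice were C57BL/6 and carried Mesp1-Cre, Ai9 and floxed Wls. Wls (Wntless) carries Wnt ligands to the cell surface. Controls were Wls fl/+ and therefore also lost 1 Wls allele in the Cre lineage, and mutants were Wls fl/fl. A barcode sample is the unit of every test here, and there were 12 control and 10 mutant barcode samples, named below by their barcodes (Bar1, Bar24 and so on). At embryonic day (E) 8.0 there were 3 controls with 1549 cells and 3 mutants with 1653 cells, all in run 1. At E8.5 there were 2 controls with 2542 cells and 1 mutant with 487 cells, all in run 2. At E9.5 there were 6 controls with 5733 cells and 6 mutants with 2785 cells, spread over 3 runs. A further library of 28 cells is labelled an E7.5 control, and all 5 genes had 0 UMIs in it, which allows a level of up to 6.04 CPM. Whether a barcode sample held 1 embryo or several was not stated, so p-values measure the spread between barcode samples. Left and right sides were not kept apart. Beside mesoderm, the sorted cells held a neural-like cluster of 320 cells and an endoderm or epithelium-like cluster of 139 cells.

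Nodal is a secreted ligand of the TGF-beta family. It acts through activin receptors and the transducers Smad2, Smad3 and Foxh1, and needs an EGF-CFC co-receptor on the receiving cell, either Tdgf1 (Cripto) or Cfc1 (Cryptic). Lefty1 and Lefty2 are secreted antagonists that Nodal signalling itself induces. In the early somite embryo Nodal passes from the node to the left lateral plate mesoderm, where it induces its own transcription and Lefty2, while Lefty1 marks the midline. Tdgf1 is known as a gene of the primitive streak and later of the forming heart tube and outflow tract.

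The 5 loci lie on GRCm38 at chr10:61417972-61425338 on the plus strand for Nodal, chr1:180935022-180938400 on the plus strand for Lefty1, chr1:180893108-180899103 on the plus strand for Lefty2, chr1:34535648-34544313 on the plus strand for Cfc1 and chr9:110939603-110946158 on the minus strand for Tdgf1. All are protein coding. Cfc1 overlaps Prss40 and the processed pseudogene Gm28419 on the opposite strand, and whether reads were counted by strand is not given in the sources used here. Lefty1 and Lefty2 are near copies that share 398 sequences of 31 bases, but at the 3' end, where this assay reads, 30 of the 470 such sequences in the last 500 bases of Lefty1 and none of those of Lefty2 were shared. The last 500 bases of Tdgf1 shared none with its pseudogenes Tdgf1-ps1 and Tdgf1-ps2.

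The promoters of 3 of the 5 genes were in the RefSeq table of GRCm38.p6. They are shown because Nodal, Cfc1 and Tdgf1 were all lower at E9.5 than at E8.0 in these cells. Each line gives the 250 bases before the transcription start, 5' to 3' on the strand of the gene, and the capitals in Tdgf1 mark a stretch of 21 bases that starts again 19 bases further on, so that its copies overlap.
Nodal (chr10:61417722-61417971, plus strand): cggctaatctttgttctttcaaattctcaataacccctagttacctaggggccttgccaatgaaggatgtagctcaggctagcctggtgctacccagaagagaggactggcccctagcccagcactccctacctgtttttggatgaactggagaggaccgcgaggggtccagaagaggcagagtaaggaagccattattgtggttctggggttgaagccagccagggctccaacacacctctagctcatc
Cfc1 (chr1:34535398-34535647, plus strand): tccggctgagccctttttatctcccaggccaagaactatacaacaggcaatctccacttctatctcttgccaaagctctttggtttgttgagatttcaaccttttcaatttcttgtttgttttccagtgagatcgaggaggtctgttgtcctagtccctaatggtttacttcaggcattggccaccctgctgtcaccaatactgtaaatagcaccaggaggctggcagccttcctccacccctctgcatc
Tdgf1 (chr9:110946159-110946408, minus strand): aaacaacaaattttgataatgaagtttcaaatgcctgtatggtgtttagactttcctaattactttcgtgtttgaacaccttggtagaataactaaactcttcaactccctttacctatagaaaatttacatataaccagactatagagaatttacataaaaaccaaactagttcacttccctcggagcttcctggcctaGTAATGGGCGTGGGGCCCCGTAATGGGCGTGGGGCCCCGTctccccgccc
The GC content of these stretches was 53.2% for Nodal, 47.6% for Cfc1 and 42.0% for Tdgf1. On either strand of the full table entries of 300 bases, which run to 50 bases past the start, none of the 3 held the Foxh1-type letters TGTGGATT or TGTGTATT, the Smad palindrome GTCTAGAC or the TCF/LEF letters CTTTGAT. These were found in 0.855%, 0.980%, 0.213% and 3.73% of the 32851 promoters of the table. The search covers this window only and enhancers were not searched.

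The labels and the sort were checked on Wls and Tnnt2. Wls stood at 35.9 to 65.4 CPM (UMIs of the gene per 1000000 UMIs of the sample) in the 11 controls from E8.0 on and at 3.72 to 14.2 CPM in the 10 mutants, with no overlap (log2 fold change, mutant against control, -2.38, SE 0.15, edgeR quasi-likelihood test with Benjamini-Hochberg adjustment, adjusted p = 3.93e-09). The library labelled an E7.5 control stood at 14.1 CPM, from 7 UMIs (exact 95% Poisson interval 5.67 to 29.0 CPM), which is within the mutant range and below every other control, so Wls goes against its label. It is the only sample of its stage and enters only the genotype fit over all stages in all cells, where Tdgf1 was 1.03 (edgeR adjusted p = 0.0127) without it. Cells with at least 1 UMI of Tnnt2, cardiac troponin T, are called Tnnt2-positive below. They were 4665 cells, 31.6% of all, and 51.0% of them had a single Tnnt2 UMI. A Tnnt2 UMI was also found in 26.5% of blood-like cells at E8.0 and in 14.4% at E9.5, so the Tnnt2-positive set holds more than cardiomyocytes. Barcode samples held 134457 to 61307782 UMIs and 6 to 2508 cells, and those under 20 Tnnt2-positive cells were left out of the Tnnt2-positive fits. The 1 sample under 20 cells, the E9.5 control Bar6 with 6, was part of the all-cell fits but not of the means and medians, and leaving it out changed the number of members called in none of them. Cell barcode sequences shared between runs numbered 16, 5 and 2 for the 3 pairs of runs.

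The sex of the E8.0 samples went with genotype. The summed level of Ddx3y, Eif2s3y, Kdm5d and Uty was 127 to 138 CPM in the 3 E8.0 mutants, and 9.98, 8.55 and 70.7 CPM in the 3 E8.0 controls, of which the last also held 66.1 CPM of Xist. At that stage genotype and sex therefore cannot be told apart. The summed Y-linked level at E8.5 was 3.44 and 3.41 CPM in the controls and 4.96 CPM in the mutant. At E9.5 it was 131 to 151 CPM in the mutants Bar5, Bar19 and Bar21, and 6.94 to 10.4 CPM in Bar8, Bar10 and Bar20. The E9.5 controls Bar6 and Bar7 held 149 and 89.2 CPM, and the other E9.5 controls 2.74 to 8.58 CPM.

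Stage was compared first. Nodal, Lefty2, Cfc1 and Tdgf1 were lower at E9.5 than at E8.0, whereas Lefty1 did not pass the test. Thus 4 of the 5 members were called lower, where 10.0% of the 18063 genes tested were called lower and 22.5% were called in either direction. Markers of several cell types moved with stage in the samples of at least 20 cells. The 6 blood markers together stood at 4175 to 32894 CPM at E8.0 and 22734 to 116896 CPM at E9.5. The 7 lateral plate or allantois markers stood at 316 to 588 CPM and 42.3 to 366 CPM, and the 6 epiblast or primitive streak markers at 70.2 to 89.1 CPM and 11.9 to 53.4 CPM, in the same order. The blood and lateral plate ranges overlapped and the streak ranges did not. At most 1 streak marker was at 0 in an E8.0 sample and at most 4 in an E9.5 sample, and no blood marker was at 0 in either. The part of these cell types in the fall of the 4 members was not tested, and fewer cells of a type and less RNA per cell cannot be told apart in these sums.

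Nodal, the ligand, stood in the E8.0 controls Bar24, Bar26 and Bar29 at 9.80, 0.465 and 12.8 CPM and in the E8.0 mutants Bar25, Bar27 and Bar28 at 9.40, 0.333 and 2.44 CPM. The genotypes overlapped, and 1 sample of each, Bar26 and Bar27, was low. At E8.5 it was at 0 and 0.0816 CPM in the controls Bar2 and Bar3 and at 0.477 CPM in the mutant Bar1. At E9.5 it reached at most 0.327 CPM in any sample. Thus 4 of the 6 E8.0 samples lay above every E8.5 and E9.5 sample, while Bar26 and Bar27 lay below the E8.5 mutant. Against E8.0 the level at E9.5 fell by 4.71 on the log2 scale (SE 0.66, edgeR adjusted p = 4.13e-05).

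Lefty2, the feedback antagonist of the lateral plate, stood at 5.04, 8.66 and 32.6 CPM in the E8.0 controls (Bar24, Bar26, Bar29) and at 79.7, 3.55 and 64.5 CPM in the E8.0 mutants (Bar25, Bar27, Bar28). It was at 1.15 and 0.228 CPM in the E8.5 controls Bar2 and Bar3, and at 2.86 CPM in the E8.5 mutant, where 1 cell held 18 of the 30 UMIs. At E9.5 it ranged from 0 to 1.18 CPM in the samples of at least 20 cells, so every E8.0 sample was above every later one of that size. The level fell by 5.38 on the log2 scale between E8.0 and E9.5 (SE 0.52, edgeR adjusted p = 6.43e-07).

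Lefty1 was scarce at every stage, with 289 UMIs in 240 cells of the whole series. It stood at 0.720, 0.465 and 1.69 CPM in the E8.0 controls and at 2.95, 0.0554 and 0.558 CPM in the E8.0 mutants, in the same order of samples. At E9.5 the median was 0.662 CPM in 5 controls and 0.650 CPM in 6 mutants. The stages overlapped and the change of -0.32 (log2, SE 0.48) did not pass (edgeR adjusted p = 0.700).

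Of the co-receptors, Cfc1 was also low after E8.0. It stood at 12.5, 5.93 and 13.7 CPM in the E8.0 controls and at 10.9, 3.72 and 7.11 CPM in the E8.0 mutants, at 1.15 and 0.343 CPM in the E8.5 controls, at 1.72 CPM in the E8.5 mutant and at 0 to 1.60 CPM at E9.5. No later sample reached the lowest E8.0 value. The level fell by 4.17 on the log2 scale from E8.0 to E9.5 (SE 0.39, edgeR adjusted p = 3.73e-07).

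Tdgf1 had the smallest of the 4 called changes. It stood at 8.63, 7.33 and 20.4 CPM in the E8.0 controls and at 34.4, 16.9 and 24.1 CPM in the E8.0 mutants. The E8.5 controls Bar2 and Bar3 held 0 and 3.82 CPM, and the E8.5 mutant Bar1 held 22.5 CPM. At E9.5 the 5 controls of at least 20 cells ranged from 2.95 to 8.38 CPM with a median of 4.95 CPM, and the 6 mutants from 0 to 10.7 CPM with a median of 7.81 CPM. The E8.0 and E9.5 ranges overlapped, and the level fell by 1.37 on the log2 scale (SE 0.29, edgeR adjusted p = 0.00195).

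**Figure D1:**
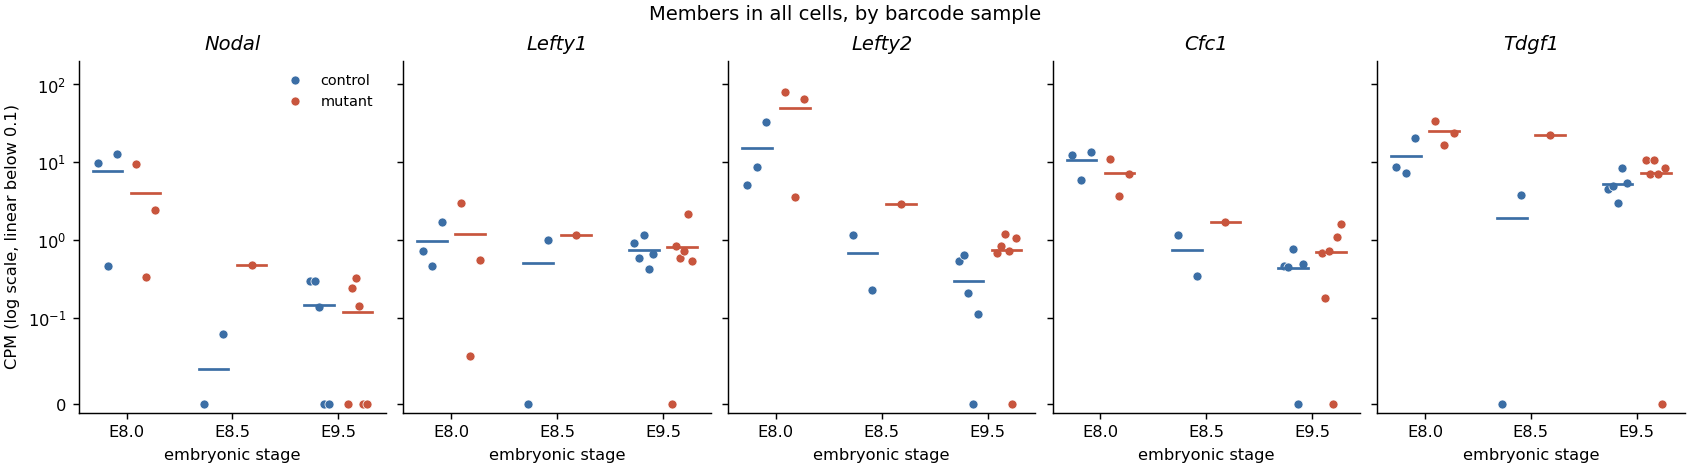
Level of each gene in CPM (vertical axis, log scale with a linear part below 0.1) in every barcode sample of at least 20 cells, by embryonic stage, controls in blue and mutants in red, with a horizontal line at each group's mean. Nodal, Lefty2 and Cfc1 drop after E8.0, Tdgf1 has a log2 change of -1.37 from E8.0 to E9.5, and Lefty1 stays between 0 and 2.95 CPM throughout.

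Nodal, Lefty2 and Cfc1 were already lower at E8.5. The log2 changes from E8.0 were -4.91 for Nodal (SE 1.20, edgeR adjusted p = 0.00920), -4.66 for Lefty2 (SE 0.89, adjusted p = 0.00244) and -3.27 for Cfc1 (SE 0.63, adjusted p = 0.00258). Tdgf1 changed by -0.75 (SE 0.44, adjusted p = 0.227), with 22.5 CPM in the 1 mutant against 3.82 CPM in the larger control. Of all genes tested 9.83% were called lower in this comparison and 19.0% in either direction. It shares its E8.0 samples with the E9.5 comparison, and all E8.0 samples were in run 1 and all E8.5 samples in run 2, which are linked only by the E9.5 samples in both. With run as a further term 0 of the 5 were called, and without Bar3, which holds 2508 of the E8.5 control cells, none of the 3 passed (Nodal -3.32, adjusted p = 0.167; Lefty2 -3.88, adjusted p = 0.0542; Cfc1 -2.18, adjusted p = 0.0679). The E9.5 comparison kept its 4 calls with run as a further term, in run 1 alone and in each of 21 fits without 1 sample. From E8.5 to E9.5 edgeR and DESeq2 called 0 of the 5 members, none at an unadjusted p under 0.05, where edgeR called 0.0332% of genes (6 genes, and 0 to 2290 when each sample was left out, with 280 without Bar6, 447 without Bar5 and 2290 without Bar4).

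Within Tnnt2-positive cells the stage pattern was similar. In edgeR 4 of the 5 were lower at E9.5 than at E8.0, where 10.3% of 14953 genes were lower and 22.1% were called in all. Lefty2 fell by 5.17 (SE 0.60, adjusted p = 1.68e-05), Nodal by 4.42 (SE 0.77, adjusted p = 0.000587), Cfc1 by 3.92 (SE 0.41, adjusted p = 1.07e-05) and Tdgf1 by 1.04 (SE 0.23, adjusted p = 0.00396) on the log2 scale. At E8.5, 3 of the 5 were called lower, where 8.63% of genes were lower and 17.2% were called in all, with Nodal next to the threshold (-3.46, SE 1.18, adjusted p = 0.04995) and lost in 16 of the 18 fits without 1 sample. In that comparison Lefty2 was lost without Bar3 (-2.94, adjusted p = 0.164) or without the mutant Bar1 (-4.77, adjusted p = 0.0706), and Cfc1 without Bar3 (-1.44, adjusted p = 0.270). With run as a further term 0 of the 5 were called in these cells, and the genes called in all went from 2573 to 47. From E8.5 to E9.5 both tools called 0 of the 5 in these cells, with Tdgf1 at an unadjusted p under 0.05, where edgeR called 0.0468% of genes.

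Tnnt2-positive cells held 32.7% of all UMIs but unequal parts of each gene. They held 95.0% of the Tdgf1 UMIs, 68.9% of those of Cfc1, 52.9% of Lefty2, 47.5% of Nodal and 31.1% of Lefty1. For Lefty2 and Tdgf1 few cells carried most of the signal. At E8.0 the 136 cells with at least 5 Lefty2 UMIs held 85.5% of its UMIs, and 101 such cells held 86.6% of the Tdgf1 UMIs. For Nodal 28 such cells held 47.4%, for Lefty1 3 held 29.8% and for Cfc1 2 held 1.61%.

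To place these genes, cells were clustered on variable genes from which the 5 members had been removed, which gave 29 clusters, and a cluster was named "X-like" from marker lists. The levels below describe the clusters and are not a test.

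Nodal was concentrated in cluster 5, of 729 cells, 95.9% of them from E8.0. The marker rule named it posterior second heart field-like, but the genes that led it were Cdx4, Lhx1 and Cdx2. Of these, Cdx4 and Cdx2 are known for the caudal embryo. At a resolution of 0.5 the cluster led by Cdx4 and Cdx2 was named lateral plate or allantois-like. Cluster 5 held 58.2% of all Nodal UMIs at 14.6 CPM. Within that cluster Bar26 and Bar27 were again the lowest E8.0 samples, with Nodal at 41.3, 0.646 and 33.1 CPM in Bar24, Bar26 and Bar29 and at 17.8, 1.11 and 1.98 CPM in the mutants Bar25, Bar27 and Bar28. Cluster 5 made up 18.4% to 26.6% of the cells of the 6 samples. The next level of Nodal was 9.49 CPM in cluster 25, an endoderm or epithelium-like cluster, from 30 UMIs in 4 cells.

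Lefty2 was spread over more of the E8.0 mesoderm. Over all stages cluster 9, an anterior second heart field-like cluster of 635 cells led by Igfbpl1 and Fgf8, held 36.9% of its UMIs at 63.1 CPM. Cluster 5 held 33.0% at 44.2 CPM, and the cardiomyocyte-like cluster 16 held 9.61% at 32.1 CPM. Of the cells of cluster 16 only 33.0% were from E8.0, against 95.9% in clusters 9 and 5. These pooled levels therefore do not rank the clusters at E8.0. In cluster 9 the E8.0 controls held 11.9, 27.2 and 32.7 CPM of Lefty2 and the E8.0 mutants 174, 5.53 and 157 CPM, so that Bar25 and Bar28 stood above the highest control and Bar27 below the lowest. The levels in cluster 5 were 13.6, 7.11 and 86.0 CPM of Lefty2 in the controls and 93.4, 0.831 and 64.0 CPM in the mutants, where the ranges overlap. After E8.0 the few Lefty2 UMIs were mostly elsewhere: the proepicardium-like cluster 4, led by Sfrp5 and Wt1, held 68.9% of the 45 Lefty2 UMIs of E8.5 and 35.6% of the 101 of E9.5. Of the 45, 18 were in 1 cell of cluster 4 from the mutant Bar1, which held 30 of them in all.

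Cfc1 was found in the largest share of cells, 44.8%, in cluster 26, an unnamed cluster of 116 cells led by Tdo2 and Hand1, at 34.6 CPM. Cluster 5 held 29.1% of its UMIs at 12.4 CPM. Over all stages Cfc1 in both cardiomyocyte-like clusters was close to that, at 13.1 CPM in cluster 16 and 10.6 CPM in cluster 12. Of their cells only 33.0% and 28.2% were from E8.0, against 95.9% in cluster 5. These levels therefore do not compare the clusters at E8.0. At E9.5 clusters 16 and 12 held 25.6% and 17.9% of the 78 Cfc1 UMIs.

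Tdgf1 was concentrated in 1 cluster. Cluster 16, a cardiomyocyte-like cluster of 406 cells in which all 8 cardiomyocyte markers were raised and Myh7, Ankrd1 and Acta2 were among the leading genes, held 82.9% of all Tdgf1 UMIs at 307 CPM, with a UMI in 64.0% of cells. In the 8 samples with at least 20 cells of this cluster, which include no E9.5 mutant and 1 E8.0 control, its Tdgf1 level was 314 CPM in the E8.0 control Bar29, 459 and 321 CPM in the E8.0 mutants Bar25 and Bar27, 246 CPM in the E8.5 control Bar3, 495 CPM in the E8.5 mutant Bar1, and 178, 237 and 164 CPM in the E9.5 controls Bar22, Bar23 and Bar9. Cluster 12, the other cardiomyocyte-like cluster, led by Myl2, Myh6 and Nppa, held 9.58% of Tdgf1 UMIs. There Tdgf1 went from 61.9 ± 21.8 CPM at E8.0 (SD, n = 5) to 2.87 ± 2.96 CPM at E9.5 (SD, n = 6). At E9.5 cluster 16 held 84.2% of that stage's 985 Tdgf1 UMIs, close to its 82.9% over all stages. At E8.0 it already held 86 of the 101 cells with at least 5 Tdgf1 UMIs.

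Lefty1 differed from the rest in where its UMIs were. Cluster 5 held 42 of the 84 E8.0 Lefty1 UMIs, in which the control Bar29 and the mutant Bar25 had 23 and 15 UMIs and the other 4 samples 0 to 3. At E8.5 the blood-like cluster 10 held 63.5% of 74 UMIs, and at E9.5 the blood-like cluster 1 held 45.0% of 131. Of the 74 UMIs of E8.5, 62 came from the control Bar3. A Lefty1 UMI was found in 6.04% of blood-like cells at E9.5 against 0.982% of cardiomyocyte-like cells, and in 1.18% against 0.203% after thinning each cell to 5000 UMIs. Nodal had 0 UMIs in 1292 blood-like cells of E9.5, and Tdgf1 had a UMI in 1.08% of them against 23.6% of cardiomyocyte-like cells.

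**Figure D2:**
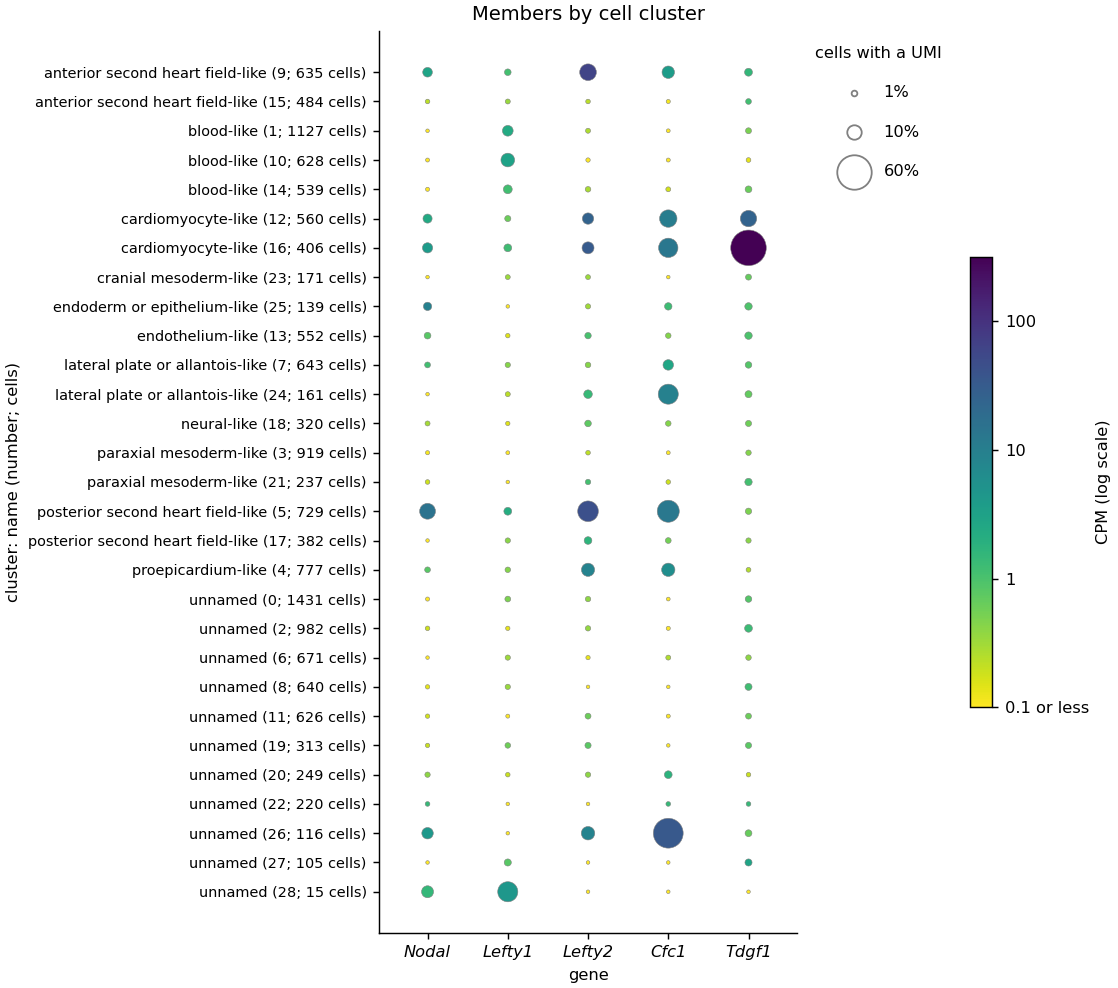
Each dot is 1 gene (horizontal axis) in 1 of 29 cell clusters (vertical axis, with name, number and cells); its area is the share of cells with a UMI and its colour the level in CPM on a log scale. Tdgf1 is dark in the cardiomyocyte-like cluster 16 (307 CPM), Nodal is highest in cluster 5, and Lefty2 is high in clusters 9, 5, 16 and 12.

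The variation between E8.0 samples was shared by several members. The samples Bar26 and Bar27, 1 of each genotype, were the lowest for Nodal, Lefty1 and Cfc1, and Bar27 for Lefty2. Tdgf1 was also lowest in Bar26 among the controls, and of all 6, and in Bar27 among the mutants, but Bar27, at 16.9 CPM, stood above the controls Bar24 and Bar26. Cell type markers moved with the order: the 7 lateral plate or allantois markers were lowest in Bar26 and Bar27, at 316 and 379 CPM against 477 to 588 CPM in the other 4 samples, and the 6 blood markers were highest there, at 32894 and 15105 CPM against 4175 to 13332 CPM. No marker of either list was at 0, and their part in the order was not tested.

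**Figure D3:**
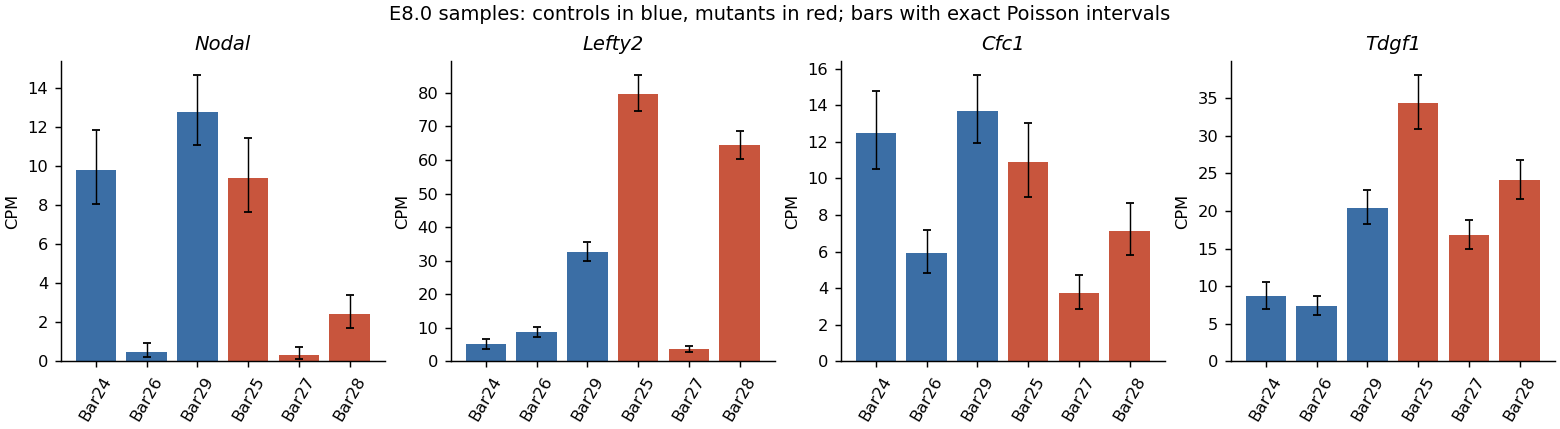
Level in CPM (vertical axis) of Nodal, Lefty2, Cfc1 and Tdgf1 in the 6 E8.0 barcode samples, controls in blue and mutants in red; bars are the values and error bars exact Poisson intervals for counting error only. Bar26 and Bar27 are low for Nodal, and the 2 tallest Lefty2 bars are mutants.

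Single cells at E8.0 showed which members were found together. Lefty2 had a UMI in 58.9% of the 168 cells with a Nodal UMI and in 8.14% of the 3034 without. The same shares were 10.7% and 1.02% for Lefty1, 33.9% and 14.5% for Cfc1, and 12.5% and 6.86% for Tdgf1. These shares pool 6 samples whose levels differ. Within samples Cfc1 was more frequent in the Nodal cells of all 6 and Lefty2 in 5, but Lefty1 and Tdgf1 in 3 of 6 each. Some of these directions rest on 1 cell or none, as Bar26 and Bar27 had only 8 and 6 Nodal cells. Cfc1 was in 1 cell of each, and Lefty1 in 1 of the 30 Nodal cells of Bar24. Tdgf1 was less frequent in the Nodal cells of Bar24 (0% against 7.72%), Bar29 (4.26% against 8.45%) and Bar27 (0% against 6.76%), and Lefty1 had no UMI in the Nodal cells of Bar26, Bar27 and Bar28. Median depth was alike, at 27388 UMIs in cells with Nodal and 26814 in those without. The overlap of Nodal with Lefty2 varied between samples: 32 of 47 Nodal cells in Bar29, 39 of 50 in Bar25 and 18 of 27 in Bar28 held Lefty2, against 8 of 30 in Bar24, 2 of 8 in Bar26 and 0 of 6 in Bar27. Cells with a Tdgf1 UMI held Tnnt2 in 87.8% of cases, against 38.4% of those without. Cells of a sample share their library, so these shares are a description without a test.

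**Figure D4:**
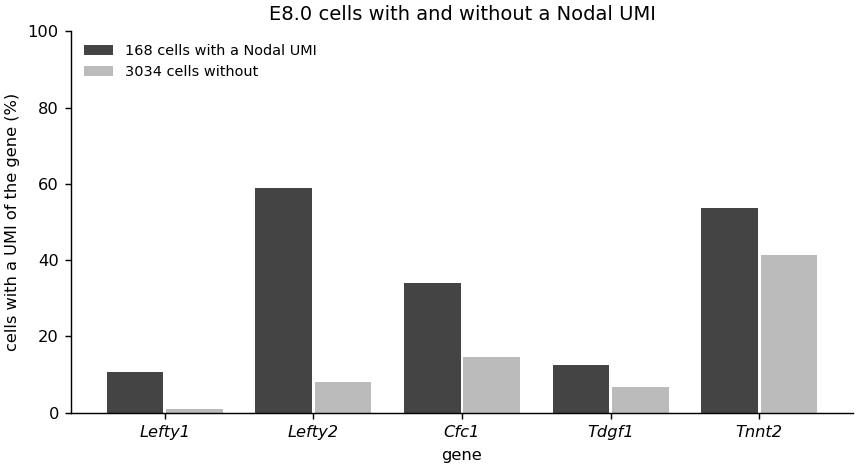
Share of E8.0 cells with a UMI of each gene (vertical axis, %) among the 168 cells with a Nodal UMI (dark bars) and the 3034 without (light bars). Pooled over the 6 samples the share is higher in the cells with Nodal for all 5 genes, among them Lefty2 (58.9% against 8.14%), whereas within samples Tdgf1 is higher in 3 of 6.

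Loss of Wls in this lineage was compared with controls over all stages, with stage and run in the model. Tdgf1 was higher in mutants and was the only member called, where 4.47% of the 20831 genes tested were called higher and 10.2% in either direction. Its log2 fold change was 1.02 (SE 0.25, edgeR adjusted p = 0.0140). Mean levels of Tdgf1 were 12.1 ± 7.23 CPM in controls and 25.1 ± 8.80 CPM in mutants at E8.0 (SD, n = 3 each), and 5.24 ± 1.98 CPM (SD, n = 5) and 7.32 ± 3.93 CPM (SD, n = 6) at E9.5, and the genotypes overlapped at both stages. Lefty2 had a log2 fold change of 1.57 (SE 0.52, adjusted p = 0.0584). Nodal (-0.69, SE 0.68, adjusted p = 0.623), Cfc1 (-0.21, SE 0.36, adjusted p = 0.815) and Lefty1 (-0.02, SE 0.41, adjusted p = 0.998) did not pass.

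The Tdgf1 call in all cells was lost without the single E8.5 mutant Bar1 (0.77, adjusted p = 0.0562) and held in the other 21 fits that each left out 1 sample. The clusters named cardiomyocyte-like, which hold most of the Tdgf1, tended to be larger in mutants at E8.0 and E8.5. They made up 4.63%, 5.86% and 10.7% of cells in the E8.0 controls and 12.8%, 10.3% and 10.0% in the E8.0 mutants, which overlap through Bar29. The share was 3.87% in the E8.5 control Bar3 against 13.8% in the E8.5 mutant. At E9.5 the genotypes overlapped. The shares ran from 64 of 1719 cells (Bar23) to 25 of 164 (Bar7) in the controls of at least 20 cells. In the E9.5 mutants they ran from 2 of 57 (Bar5) to 28 of 168 (Bar8). The 8 cardiomyocyte markers together stood at 1380 to 2440 CPM in the E8.0 controls and 3184 to 3451 CPM in the E8.0 mutants, with none at 0, and at 1119 CPM in Bar3 against 5640 CPM in Bar1. At E9.5 they overlapped, at 1385 to 5456 CPM in the 5 controls of at least 20 cells, 44.6 CPM in Bar6, where 5 of the 8 were at 0, and 760 to 8250 CPM in mutants. Their part in the all-cell result was not tested.

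In Tnnt2-positive cells Tdgf1 and Lefty2 were called higher in mutants, 2 of the 5 members, where 3.8% of the 16122 genes tested were called higher and 8.23% in either direction. Tdgf1 stood at 22.9, 15.8 and 46.6 CPM in the E8.0 controls and at 68.5, 39.6 and 57.2 CPM in the E8.0 mutants. It was at 15.8 CPM in the E8.5 control Bar3 and 58.9 CPM in the mutant Bar1. At E9.5 the 5 controls held 11.6, 13.3, 11.8, 31.1 and 19.3 CPM (Bar22, Bar23, Bar4, Bar7, Bar9) and the 5 mutants 21.8, 27.2, 21.3, 20.8 and 30.7 CPM (Bar19, Bar20, Bar21, Bar8, Bar10). The genotypes overlap only through Bar29 at E8.0 and only through Bar7 at E9.5. The summed Y-linked level was 70.7 CPM in Bar29 and 89.2 CPM in Bar7, against 2.74 to 9.98 CPM in the other controls of these fits. Among the E9.5 mutants it was 151 and 136 CPM in Bar19 and Bar21, and 6.94 to 10.4 CPM in Bar20, Bar8 and Bar10. Of the Tnnt2-positive cells, 125 of 241 in Bar29 held at least 3 Tnnt2 UMIs. The other E8.0 controls had 46 of 129 (Bar24) and 113 of 272 (Bar26). The E8.0 mutants ran from 105 of 230 (Bar28) to 102 of 187 (Bar25). At E8.5 it was 206 of 573 in Bar3 and 108 of 183 in Bar1. Bar7 had 23 of 49, and the other E9.5 controls 127 of 527 (Bar23) to 59 of 155 (Bar4). The E9.5 mutants ran from 50 of 204 (Bar21) to 29 of 64 (Bar8). The part of sex or of these cells in the overlap was not tested. The log2 fold change of Tdgf1 was 0.96 (SE 0.21, edgeR adjusted p = 0.00917), and it passed in each of the 18 fits without 1 sample. Tnnt2 itself had a log2 fold change of 0.55 in these cells (SE 0.18, adjusted p = 0.0711).

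Lefty2 in Tnnt2-positive cells stood at 1.74, 14.0 and 28.2 CPM in the E8.0 controls and 77.5, 8.00 and 96.8 CPM in the E8.0 mutants. It was at 0.559 CPM in the E8.5 control and 6.86 CPM in the E8.5 mutant, of whose 27 UMIs 1 cell held 18, with medians of 0.288 CPM in the E9.5 controls and 1.59 CPM in the E9.5 mutants. The genotypes overlapped at E8.0 through Bar27 and at E9.5. The log2 fold change of 1.90 (SE 0.57, edgeR adjusted p = 0.0445) was lost in 15 of the 18 fits without 1 sample, in which it ranged from 1.54 to 2.44 and the adjusted p reached 0.133. Without that mutant it was 1.73 (adjusted p = 0.101).

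With the sums taken over the cardiomyocyte-like clusters in place of Tnnt2-positive cells, an alternative chosen after seeing the data, Tdgf1 was 0.59 higher on the log2 scale in mutants (SE 0.15, edgeR adjusted p = 0.0409) and Lefty2 2.24 higher (SE 0.56, adjusted p = 0.0391). Tdgf1 in those clusters was at 180, 123 and 201 CPM in the E8.0 controls (Bar24, Bar26, Bar29). It was at 286, 164 and 245 CPM in the E8.0 mutants (Bar25, Bar27, Bar28), with overlap at E8.0, and at 109 CPM in Bar3 against 170 CPM in Bar1. Bar24 held only 17 cells of those clusters and was left out of the cluster fit, whose E8.0 controls were Bar26 and Bar29. A second added alternative took the summed Y-linked level as a covariate. Then Tdgf1 no longer passed, at 1.07 in all cells (adjusted p = 0.0791) and 0.86 in Tnnt2-positive cells (adjusted p = 0.138), nor did Lefty2 (1.80 in Tnnt2-positive cells, adjusted p = 0.424), and the genes called fell from 2132 to 471 and from 1327 to 76. The Tdgf1 call also ended without the E9.5 samples (1.39, adjusted p = 0.220, and 1.14, adjusted p = 0.184) and in run 1 alone (0.91, adjusted p = 0.0813, and 0.91, adjusted p = 0.0686), in all and in Tnnt2-positive cells respectively.

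**Figure D5:**
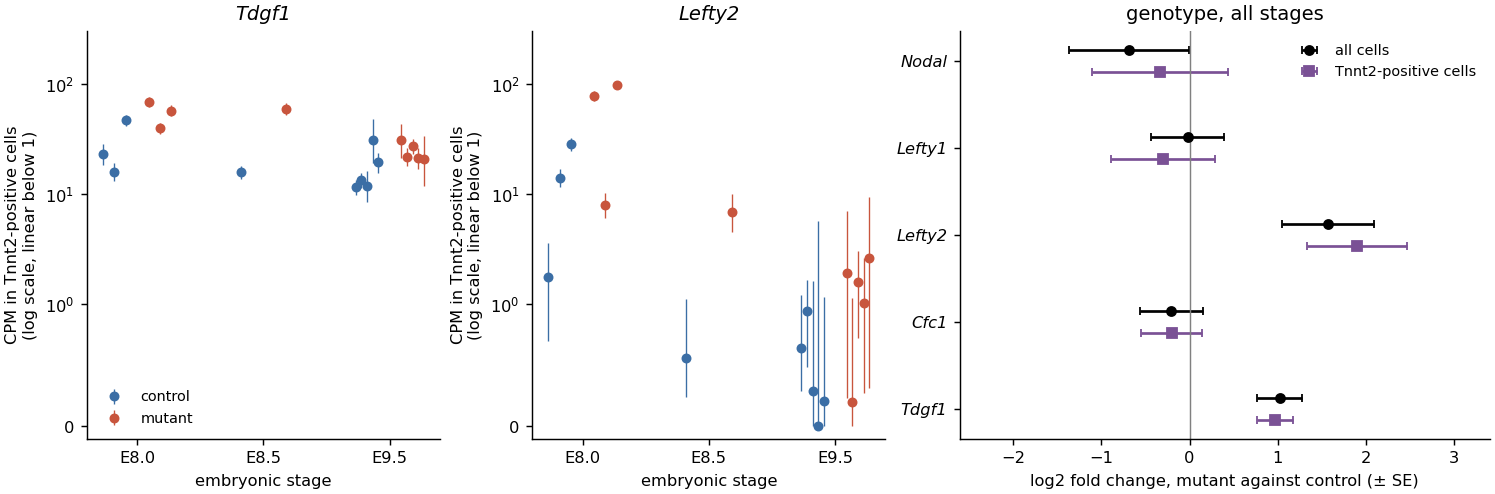
Left and middle, level of Tdgf1 and Lefty2 in Tnnt2-positive cells in CPM (log scale, linear below 1) by stage and barcode sample, controls blue and mutants red, with exact Poisson intervals for counting error; right, log2 fold change of each gene in mutants against controls over all stages with its standard error, in all cells (circles) and Tnnt2-positive cells (squares). Tdgf1 (1.02 and 0.96) and Lefty2 (1.57 and 1.90) lie to the right of 0, and the other 3 lie within about 1 standard error of it.

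Within single stages little passed. At E8.0 edgeR and DESeq2 called 0 of the 5 members in all cells, with 1 at an unadjusted p under 0.05 (Tdgf1, 0.97, SE 0.39, edgeR adjusted p = 0.496), where edgeR called 0.0244% of 16416 genes. Lefty2 was at 1.58 (SE 0.98, adjusted p = 0.595), Nodal at -1.06 (SE 1.12, adjusted p = 0.753) and Cfc1 at -0.66 (SE 0.42, adjusted p = 0.602). At E9.5 both tools called 0 of the 4 members tested in all cells, with Tdgf1 (0.64, SE 0.24, edgeR adjusted p = 0.101) and Lefty2 (0.87, SE 0.40, adjusted p = 0.183) at an unadjusted p under 0.05, where 10.3% of genes were called. In Tnnt2-positive cells Tdgf1 passed at E9.5 (0.74, SE 0.18, edgeR adjusted p = 0.0369, with 5.05% of genes called and 3.05% higher) and was lost in 6 of the 10 fits without 1 sample: those without the controls Bar22, Bar23 or Bar9 or the mutants Bar19, Bar20 or Bar10, with adjusted p up to 0.249. That call also ended in the cardiomyocyte-like clusters (0.63, adjusted p = 0.0644), with at least 3 Tnnt2 UMIs (0.54, adjusted p = 0.133) and with at least 5 per 10000 (0.59, adjusted p = 0.0914). At E8.0 in these cells both tools called 0 of 4 (Tdgf1 0.89, SE 0.35, edgeR adjusted p = 0.444, the 1 member at an unadjusted p under 0.05), where 0.0292% of genes were called. Whether the effect of genotype differed by stage, E9.5 against E8.0, was put to a direct test. Both tools called 0 of the 5 in either cell set, with none at an unadjusted p under 0.05 (Tdgf1 -0.32, edgeR adjusted p = 0.860, in all cells), where edgeR called 0.464% of genes in all cells and 0.0996% in Tnnt2-positive cells.

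The share of cells with a UMI, after thinning each cell to 5000 UMIs, did not separate the genotypes. The E8.0 shares of Tdgf1 were 3.05% ± 1.18 (SD) over 3 controls and 5.02% ± 2.07 (SD) over 3 mutants (two-sided exact permutation p = 0.30; the smallest this design allows is 0.10). The E9.5 shares of Tdgf1 were 1.40% ± 0.994 (SD) over 5 controls and 1.37% ± 0.730 (SD) over 6 mutants (two-sided exact permutation p = 0.965). Of the 10 tests over the 5 genes and 2 stages, none passed, and the values adjusted over the 5 genes of a stage were 0.667 to 1.00.

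The other genes of the pathway were read from lists of 39 receptors, transducers, co-ligands and convertases, inhibitors, left-side and midline genes, node cilia genes and Nodal-responsive mesendoderm genes. Between E8.0 and E9.5 in all cells 12 of 33 tested were called, 3 higher and 9 lower, where 22.5% of all genes were called and 10.0% were lower, with a median log2 change of -0.19 against 0.00144 for all genes. The 9 that fell included Foxh1, the transcription factor that pairs with activated Smads (-2.05, SE 0.32, edgeR adjusted p = 0.000132), and Cer1, a secreted Nodal antagonist (-3.01, SE 0.42, adjusted p = 4.16e-05). Of the 8 Nodal-responsive genes 5 fell: Lhx1 by 1.81, T by 2.54, Fgf8 by 1.11, Mixl1 by 1.64 and Mesp1 by 2.29 on the log2 scale, and the list's median was -1.38. These 5 are also known as genes of the streak or early mesoderm, and Mixl1 is among the streak markers above. Furin, a convertase, fell by 0.35. The 3 that rose were Pcsk6, a convertase that matures Nodal (1.02, SE 0.20, adjusted p = 0.000979), the Foxh1 repressor Drap1 (0.24) and the cilia motor gene Kif3a (0.33). None of the 4 activin receptor genes was called between these stages. Between E8.0 and E8.5, with the same E8.0 samples, 11 of 33 were called, 2 higher and 9 lower, where 19.0% of all genes were called and 9.83% were lower, with Foxh1 at -2.01 (SE 0.52, adjusted p = 0.0129). The receptors Acvr2b (0.37, adjusted p = 0.0440) and Acvr1b (-0.75, adjusted p = 0.0265) were called there in opposite directions. With run as a further term 131 of all genes were called in that comparison against 3429.

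Between genotypes few genes of the same lists were called. Over all stages in all cells edgeR called 0 of 33, where 10.2% of all genes were called, with 2 at an unadjusted p under 0.05 (Cer1 and Rfx3), and DESeq2 called 1 (Rfx3). In Tnnt2-positive cells 1 of 31 was called, against 8.23% of all genes: Rfx3, a transcription factor of cilia genes (0.34, SE 0.10, edgeR adjusted p = 0.0398). At E9.5 in all cells 1 of 29 was called, against 10.3% of all genes: the inhibitory Smad7 (0.54, SE 0.15, edgeR adjusted p = 0.0345). There 6 were at an unadjusted p under 0.05 (Fgf8, Gsc, Lhx1, Rfx3, Skil and Smad7), and DESeq2 called 3 (Rfx3, Skil and Smad7). At E8.0 both tools called 0 of 33, with 3 at an unadjusted p under 0.05, where edgeR called 0.0244% of all genes.

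The genes whose levels were most like each member's are given as a description, by Pearson's r of log2(CPM + 1). Only genes with at least 100 UMIs in the whole series were compared. Over the 29 clusters these were Snai3 (0.96), 4930512H18Rik (0.95) and the heart long RNA Mhrt (0.94) for Tdgf1. For Cfc1 they were Asb12 (0.87), Gpat3 (0.86) and the cardiac transcription factor Tbx20 (0.84). Lefty2 was nearest to Gm13715 (0.85), Cfc1 (0.78) and the cardiac coactivator Myocd (0.75), and Nodal to AC132353.2 (0.71), Oprk1 (0.69), Gpat3 and Cfc1 (both 0.68). Lefty1 was nearest to Tmem86b (0.82) and 1110008P14Rik (0.81), and its r with each other member lay between -0.04 and 0.18. Over the 21 barcode samples of at least 20 cells Nodal was nearest to Vrtn (0.96), Ptgds (0.94), Sez6l2 (0.93) and Mesp1 (0.90), Cfc1 to Elmo1 (0.93), Lefty2 to Trh (0.92) and Tdgf1 to Rcsd1 and Tspan2 (both 0.94). Several of these genes were near the limit of 100 UMIs: Vrtn had 100, Ptgds 132, Sez6l2 104, Mesp1 199 and Snai3 121. Others were not, such as Elmo1 with 2739, Rcsd1 with 9317 and Tspan2 with 3978. Clusters share their libraries, and the samples share stage and run.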

How the data were processed

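Single cells were read on 10x Chromium v3 with MULTI-seq barcodes. The values used are raw UMI counts per gene and cell, deposited by the authors, and kallisto, bustools 0.46.1, Cell Ranger and GRCm38 are named in the submitters' processing notes. Stage, genotype, run and barcode of each cell came from the deposited per-cell table, in which controls are called wildtype and mutants knockout. Whether doublets were removed before deposit is not given in the sources used here, and no caller was run.

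Counts were summed per barcode sample, over all cells and over cells with at least 1 Tnnt2 UMI (samples with at least 20 such cells), and tested in R 4.3.3 with the two-sided quasi-likelihood F test of edgeR 4.0.16 (genes kept by filterByExpr, scaling by TMM, Benjamini-Hochberg adjustment over all genes tested, threshold 0.05). The genotype model over all stages held stage and run, the models within a stage held run where there were several, and the stage models held genotype. The standard error is the size of the log2 fold change divided by the root of F. On simulated counts in all cells the test recovered 79.4% of genes changed by 1 on the log2 scale and 96.7% of those changed by 2, with 12 false calls, for genotype over all stages (19495 genes). The values were 63.2% and 95.6%, with 14 false calls, for genotype at E8.0 (16070 genes), and 73.2% and 96.8%, with 6, for E9.5 against E8.0 (17619 genes). The changed genes were drawn at random, and the simulated means held no other effect of stage or run. For genotype at E8.0 the SE was 1.12 for Nodal, 1.01 for Lefty1, 0.98 for Lefty2, 0.42 for Cfc1 and 0.39 for Tdgf1. The rates therefore do not say how often a change in a given member would be called. DESeq2 1.42.0, no low-count filter, run choices, other Tnnt2 rules and leaving out each barcode sample were the alternatives. Sums over cardiomyocyte-like clusters and the Y-linked covariate were added after seeing the data. The cluster sums were tested in samples with at least 20 cells of those clusters, which left out the E8.0 control Bar24.

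Clustering left out the 5 members and used scanpy 1.11.5 with leidenalg 0.10.2 (2000 variable genes per run, of which the 1437 variable in at least 2 runs were used, counts scaled to 10000, 30 principal components, 20 neighbours, resolution 1). A cluster was named after the marker list of which at least 60% and at least 3 genes were at least 1 (log2) above the other cells, with 1 or more of them among its 10 leading genes. The text names the members in every fit, pathway genes that passed, and the 5 genes most correlated with each member, of which the first few are printed. The members and lists were chosen with earlier results of these data known. Intervals on counts are exact 95% Poisson intervals, and these and the limits for a count of 0 (3 counts of the total) cover counting error only. Some genes counted in the pathway lists are not reported here by name.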

Additional observations from a re-analysis of the deposited data

Results flagged for a closer look

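In 20 groups of barcode samples the highest and lowest values were compared with the rest, and 4 values stood apart. All 20 groups were of E9.5, because the groups of the other stages were too small. The limits used flag about 1 group in 20 where values are normal and equally precise. These samples differ widely in depth, so that rate cannot be applied to them. Lefty1 and Lefty2 in all cells were each at 7.44 CPM in the E9.5 control Bar6, from 1 UMI each in a sample of 6 cells, where the next E9.5 controls were at 1.17 CPM for Lefty1 and 0.644 CPM for Lefty2. Nodal in Tnnt2-positive cells was at 0.815 CPM in the E9.5 mutant Bar19, from 4 UMIs in 248 cells, with the next mutant at 0.176 CPM. Tdgf1 in all cells was at 0 CPM in the E9.5 mutant Bar5, which has 57 cells, with the other 5 mutants at 7.04 to 10.7 CPM.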

How the results depend on the processing

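No paired analysis was possible because the labels give a single group of 3 runs and the barcodes carry no replicate number shared between genotypes. The 4 members called lower at E9.5 against E8.0 passed in both cell sets under every alternative run, and DESeq2 kept the number of members called in every comparison. The number of members called for genotype over all stages in all cells (1) became 2 without the low-count filter, 0 without the E9.5 samples, 0 in run 1 alone and 0 with the Y-linked covariate, and 0 to 2 when each barcode sample was left out in turn. In Tnnt2-positive cells (2) it became 0 without the E9.5 samples, in run 1 alone and with the Y-linked covariate, and ranged from 1 to 2 when each sample was left out. Within E8.0 it went from 0 to 2 in Tnnt2-positive cells without the filter. Within E9.5 it went from 0 to 1 in all cells without the filter and in run 1 alone (Tdgf1 0.59, adjusted p = 0.0293, and 0.83, adjusted p = 0.0478) and from 1 to 0 in Tnnt2-positive cells with the cardiomyocyte-like clusters, at least 3 Tnnt2 UMIs or at least 5 per 10000, and ranged from 0 to 1 in both when each sample was left out. E8.5 against E8.0 went from 3 to 0 in both with run as a further term, and ranged from 0 to 3 when each sample was left out. The cause of these changes was not tested.

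Signs turned in comparisons that the member concerned had not passed. Without a pass, Lefty1 for genotype over all stages went to 0.0465 with DESeq2, 0.0881 without the E9.5 samples and 0.0177 in run 1 alone, and Cfc1 to 0.0583 with DESeq2 and 0.66 with the Y-linked covariate (0.31 in Tnnt2-positive cells). For E8.5 against E8.0 Lefty1 went to -0.0679 with DESeq2 and -1.06 with the run term, and in Tnnt2-positive cells to 0.0422 with DESeq2, 0.0143 without the filter and 5.30 with the run term. In Tnnt2-positive cells Nodal for genotype over all stages went to 2.29 in the cardiomyocyte-like clusters, 0.92 with at least 3 Tnnt2 UMIs and 1.52 with at least 5 per 10000, at E8.0 to 3.63 in those clusters and 1.12 with at least 3, and Cfc1 at E9.5 to 0.21 with at least 3. Differences in the share of cells turned to -0.39 percentage points for Lefty1 at E9.5 without thinning, to 0.23 without thinning and 0.0509 at 10000 UMIs for Nodal at E8.0, and to 0.26 at 10000 UMIs for Tdgf1 at E9.5.

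When each sample was left out in turn, the log2 fold change for genotype over all stages ranged in all cells from -1.57 to -0.20 for Nodal, -0.53 to 0.21 for Lefty1, 1.25 to 2.19 for Lefty2, which passed without Bar29 (adjusted p = 0.0129) or Bar27 (adjusted p = 0.00448), -0.51 to 0.0558 for Cfc1 and 0.77 to 1.21 for Tdgf1. In Tnnt2-positive cells it ranged from -1.0 to 0.17, -0.71 to 0.33, 1.54 to 2.44, -0.50 to 0.0753 and 0.80 to 1.17 in the same order. Within E8.0 in all cells Lefty1 ranged from -1.81 to 0.76, and within E9.5 from -0.35 to 0.0733, Cfc1 from -0.64 to 0.37 (-0.40 to 0.31 in Tnnt2-positive cells) and Tdgf1 from 0.49 to 0.73, with a pass without Bar4 (adjusted p = 0.0396) or Bar5 (adjusted p = 0.0421). For E9.5 against E8.0 Lefty1 ranged from -0.58 to 0.33. For E8.5 against E8.0 Lefty1 ranged from -0.0856 to 0.79 (-0.35 to 0.53 in Tnnt2-positive cells) and Tdgf1 in Tnnt2-positive cells from -0.86 to 0.26. Share differences ranged from -1.74 to 0.40 percentage points for Cfc1 at E8.0, and at E9.5 from -0.0444 to 0.37 for Lefty1, -0.0602 to 0.0108 for Nodal and -0.24 to 0.40 for Tdgf1. The share of a member's UMIs in the cluster of its highest level moved to 50.8% at resolution 2 for Nodal (58.2%), 22.8% at 0.5 for Lefty1 (1.04%), 42.7% at 0.5 for Cfc1 (12.1%), and 92.2% at 0.5 and 87.8% at 2 for Tdgf1 (82.9%).

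The number of all genes called also moved. In all cells it was 2132 for genotype over all stages against 3274 with DESeq2, 1 without the E9.5 samples, 2 in run 1 alone, 1376 without the run term and 471 with the Y-linked covariate; within E8.0 4 against 45 with DESeq2 and 35 without the filter; within E9.5 1766 against 2701 with DESeq2; from E8.0 to E8.5 3429 against 131 with the run term; and from E8.5 to E9.5 6 against 1659 with DESeq2, 31 without the filter and 0 with the run term. The direct test of the difference in genotype effect called 83 genes against 395, 669 and 32 with DESeq2, without the filter and in run 1 alone. In Tnnt2-positive cells the numbers were 1327 for genotype over all stages against 2135 without the filter, 6 without the E9.5 samples, 55 in run 1 alone, 793 without the run term, 189 in the cardiomyocyte-like clusters, 76 with the covariate, and 360 and 161 with the stricter Tnnt2 rules. Within E8.0 they were 4 against 76 with DESeq2 and 519 without the filter, and within E9.5 776 against 1198, 1556, 151 in run 1 alone, 412 in the clusters, and 281 and 360 with the stricter rules. The direct test called 16 against 186, 541, 0 in run 1 alone and 4 with at least 3 UMIs. From E8.0 to E9.5 it was 3299 against 1895 in the clusters, from E8.0 to E8.5 2573 against 47 with the run term, 1126 in the clusters, and 1479 and 1468 with the stricter rules, and from E8.5 to E9.5 7 against 977, 62, 1 with the run term, 4 in the clusters, and 3 and 13. Depth limits Nodal after E8.0 most, with 10 UMIs at E8.5 and 38 at E9.5 in all.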
